A study of Mus musculus with 6 samples.

Results

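The members described here are the peaks whose summit lies in 6 blocks of 1 megabase each: chromosome 5 from megabase 113 and from megabase 150, chromosome 4 from megabase 98 and from megabase 106, chromosome 17 from megabase 48, and chromosome 2 from megabase 138. They number 6325 of the 1453803 peaks listed on the assembled chromosomes in 6 ATAC-seq libraries. ATAC-seq uses the Tn5 transposase to insert adapters into open chromatin, so a peak marks a stretch of DNA that was accessible. The libraries come from ATDC5, a mouse line derived from teratocarcinoma and used as a model of cartilage precursors, at 3 times of differentiation: Day0, labelled as control, and Day3 and Day10, labelled as differentiation. Per the labels, cells were plated as dense droplets and given ascorbate-2-phosphate and beta-glycerophosphate to differentiate, and each day has 2 replicates described as independent. All libraries come from the same line, so nothing here separates differentiation from time in this culture. The blocks were chosen by the density of regions gained on Day10, that is by peak ranks in these same libraries, so the Day10 gains are given below as a description and support no test. The cells' identity could not be checked against marker genes, because no annotation of the genome build of the lists was used here.

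Mammalian chromosomes fold into domains within which enhancers, the distal switches of genes, meet the promoters they act on. Genes that set a cell's identity often have many enhancers spread over a large stretch of DNA, and such stretches can become accessible together when a cell differentiates. In cartilage the matrix genes and their regulators are known for distal enhancers of this kind.

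Positions are those of the deposited lists, read as GRCm39 and counted from 1. Within each library, rank 1 is the peak with the highest -log10 p in the authors' list. A region reaches 250 bases to either side of the summit of a peak within the 50000 strongest of any library. There were 333 such regions in the blocks and 78698 in the genome. Between 2 days, gained regions are those within the 50000 strongest of both later libraries and beyond rank 100000, or not listed, in both earlier ones. Lost regions are the reverse, and both the summit in the window and any overlapping peak had to meet the rule. The fold given beside a rank is the authors' own value, the height of a peak over the background of its library. With 2 libraries against 2 the smallest two-sided exact permutation p is 0.333, so no test was made and the values of both libraries are given.

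Peaks were more numerous in all 6 blocks on Day10. The blocks together held 493 and 477 summits on Day0, 597 and 583 on Day3, and 2053 and 2122 on Day10. The mean Day10 count was 4.3 times that of Day0, against 2.34 times for the whole lists, and the Day3 count was 1.22 times that of Day0, against 1.08 times. The Day10 lists are longer and come from an estimated depth of 1.96 times that of Day0 replicate 1, which moves with these counts, and its part in them was not tested. With equal numbers of peaks taken from each library, the 50000 strongest, the blocks held 148 and 145 summits on Day0, 146 and 149 on Day3, and 268 and 262 on Day10. The 2 Day10 values lay above all 4 others in each block, while Day3 was within 6 summits of Day0 in each block. The Day10 gains by which the blocks were chosen are counted among these summits. The Day10 rise therefore follows from that choice, and nothing is read from it.

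**Figure D1:**
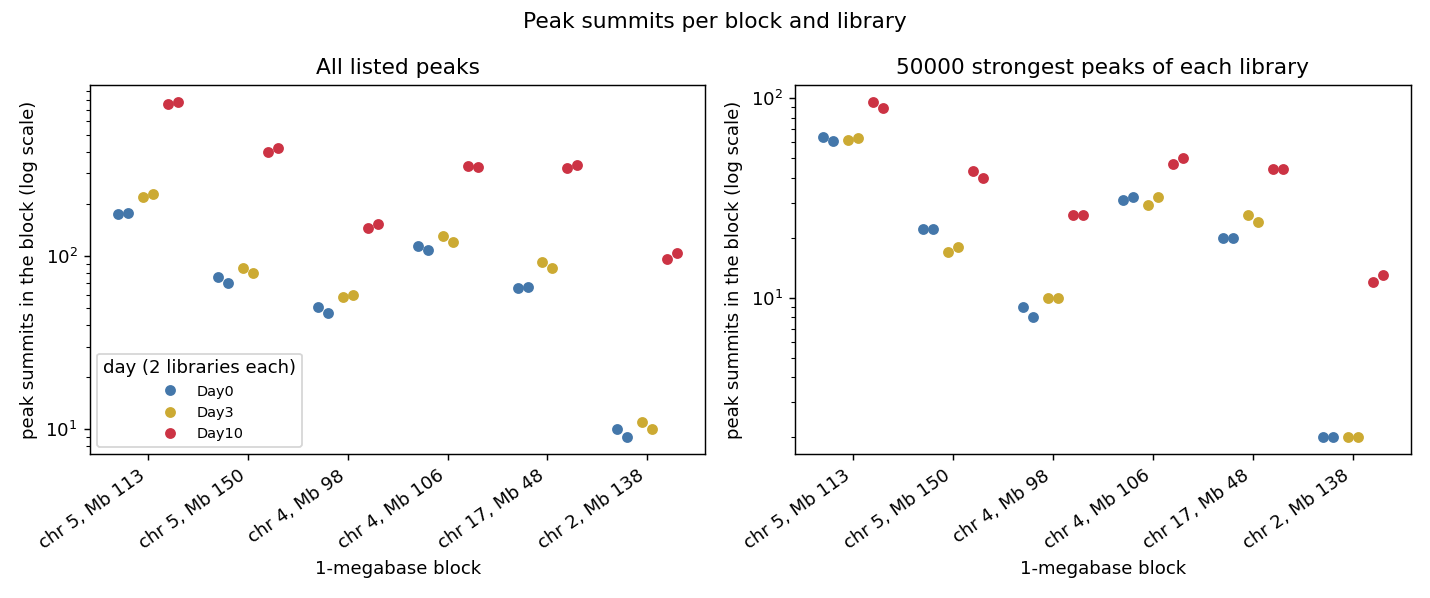
Summits per 1-megabase block in each of the 6 libraries, on a log scale, over all listed peaks (left) and over the 50000 strongest peaks of each library (right). Each point is 1 library, and both Day10 points lie above the Day0 and Day3 points in every block. In the right panel they were 12 and 13 against 2 in each earlier library on chromosome 2. On chromosome 5 from megabase 113 they were 96 and 89 against 61 to 64. The blocks were chosen by Day10 gains, so nothing is read from this rise.

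Of the 333 regions in the blocks, 106 were gained and 10 were lost on Day10 against Day0. That is 31.8% gained and 3.0% lost, where 10.7% and 7.99% of all 78698 regions were called. The first share follows from the choice of blocks and nothing is read from it. The count of 106 depends on the cutoffs: with ranks of 30000 and 60000 in place of 50000 and 100000 it was 54, or 16.2% of the regions, against 5.99% in the genome. The 10 lost regions numbered 5 to 24 under other settings, each time with a smaller share in the blocks than in the genome. A choice of blocks rich in gained regions also lowers the lost share, so nothing is read from it. Of the 10, 6 lay in the block on chromosome 4 from megabase 106. At Day10 against Day3, a comparison that shares the Day10 libraries with the first, 80 regions were gained and 1 was lost. That is 24.0% and 0.3%, where 7.72% and 3.16% of all regions were called. Of the 80, 77 were among the 106, so this gained share also follows from the choice of blocks. The 80 were 42 with the stricter cutoffs and 124 with no gap between cutoffs. At Day3 against Day0 there was 1 gained and 1 lost region, or 0.3% each, where 0.543% and 0.513% of all regions were called.

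**Figure D2:**
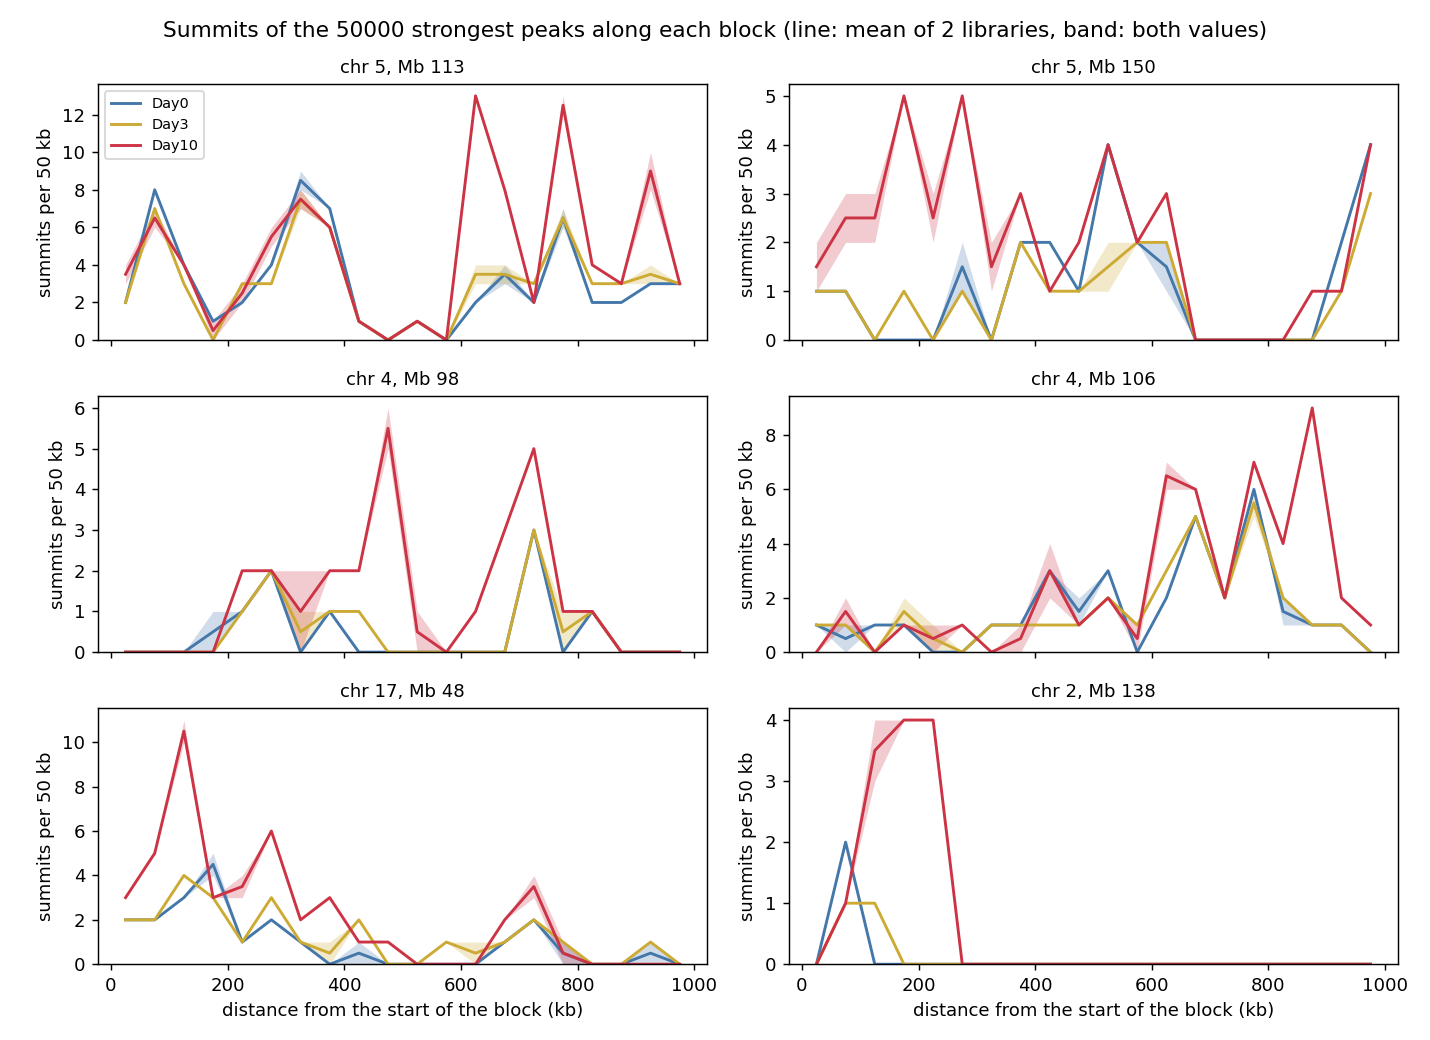
Number of summits of the 50000 strongest peaks in 50 kb steps along each block, against the distance from the start of the block in kb. Lines are the mean of the 2 libraries of a day and bands span both values. The Day10 line rises above the others over limited stretches, as between 122 and 208 kb on chromosome 2, where the Day0 and Day3 libraries held none of their 50000 strongest peaks.

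The block on chromosome 2 from megabase 138 was the poorest in peaks and had the largest share of gained regions of the 6. It listed 10 and 9 summits on Day0, 11 and 10 on Day3, and 96 and 104 on Day10. The Day10 mean was 10.53 times that of Day0 over the whole lists and 6.53 times at a -log10 q of 5 or more. All 8 gained regions, of 14 regions in the block, lay within 105 kb of each other. In RefSeq's GRCm38.p6 table, an older build whose positions differ and in which no region was placed, the megabase of the same number with 500 kb on either side has 2 protein-coding genes, Btbd3 and Sptlc3. Btbd3 is known for steering dendrites of neurons, and Sptlc3 encodes a subunit of the enzyme that starts sphingolipid synthesis. By this gene order the neighbourhood is poor in genes.

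The strongest gained region there, on chromosome 2 from 138156429 to 138156929, was already listed on every day. Its ranks were 124019 and 124535 on Day0, 82814 and 83531 on Day3, and 9990 and 11238 on Day10, and its folds were 5.83 and 5.78, then 8.34 in both, then 33.6 and 33.5. The 3 days did not overlap, and the replicates of a day differed little. The next, from 138198084 to 138198584, ranked 14508 and 18742 on Day10 and had no listed peak in the 4 earlier libraries. The third, from 138179672 to 138180172, was not listed on Day0, ranked 134359 and 152146 on Day3, and 21662 and 20485 on Day10. Over the stretch holding 6 of the gained regions, 85.9 kb long, there were 4 and 3 listed summits on Day0, 5 and 4 on Day3, and 39 and 48 on Day10. Among the 50000 strongest peaks these were 0 in each Day0 and Day3 library, and 7 and 9 on Day10. This stretch and those below were placed where gained regions are densest, so their Day10 rise follows from that choice.

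One region of this block was within the 50000 strongest in all 6 libraries. It lay from 138098206 to 138098706, before the gained stretch, and ranked 6712 and 9670 on Day0, 3880 and 4132 on Day3, and 2352 and 2276 on Day10. The block also held the 1 region lost on Day3 against Day0, from 138084319 to 138084819. That region ranked 100516 and 109666 on Day3, against 37351 and 37075 on Day0, and then 68100 and 84556 on Day10. Its Day10 ranks stood between those of Day3 and Day0 and met neither rule.

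The block on chromosome 4 from megabase 98 gained 13 of its 31 regions and lost none on Day10 against Day0. Among the 50000 strongest peaks it held 9 and 8 summits on Day0, 10 in both Day3 libraries, and 26 in both Day10 libraries. In the older build the gene order around this number runs over 9 protein-coding genes, among them Nfia, Tm2d1, Patj, Kank4, Usp1 and Atg4c in that order. Nfia is a transcription factor of the nuclear factor I family and Patj a scaffold of cell polarity. Its 3 strongest gained regions, starting at 98366111, 98459263 and 98475876, were without a listed peak on Day0 and Day3. They ranked 18838 and 14831, 17979 and 21563, and 26078 and 28801 in the Day10 libraries, with folds between 24.2 and 31.1.

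The median Day10 rank of the 13 regions was 37978 and 41007, against 32021 and 31867 over all gained regions. With the stricter cutoffs the block gained 3 regions, or 9.68%, against 5.99% in the genome. Of the 13, 11 had no peak in either Day0 library and 7 had none in either Day3 library. The strongest steady region, from 98811247 to 98811747, ranked 1893 and 2692 on Day0, 3912 and 3506 on Day3, and 1549 and 1100 on Day10.

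On chromosome 17 from megabase 48, 18 of 54 regions were gained and none was lost on Day10 against Day0. The strongest, from 48136052 to 48136552, was not listed on Day0, had folds of 6.12 and 6.67 at ranks 117256 and 107627 on Day3, and reached folds of 45.6 and 44.2 at ranks 444 and 1248 on Day10. A gained neighbour from 48141893 to 48142393 ranked 146179 and 163706 on Day0, 51602 and 50058 on Day3, and 11240 and 12432 on Day10. The third, from 48124491 to 48124991, was listed before Day10 in Day3 replicate 2 alone and ranked 23575 and 12431 on Day10. In between lay a region open on every day that moved in the same direction. From 48133783 to 48134283, 2.27 kb from the nearest gained region, ranks were 27367 and 26333 on Day0, 15645 and 16105 on Day3, and 171 and 80 on Day10. This last region was named after its values were seen. Its folds were 27.4 and 28.3 on Day0, and 47.5 and 49.7 on Day10.

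These 4 regions sit in the densest stretch of the block. Of the 18 gained regions, 8 lay in 83.7 kb, which listed 10 summits in both Day0 libraries, 19 in both Day3 libraries, and 93 and 90 on Day10. Among the 50000 strongest peaks these were 5 in both Day0 libraries, 6 in both Day3 libraries, and 14 and 15 on Day10. The median Day10 rank of the 18 regions was 38276 and 39007. The stricter cutoffs left 5 gained regions in the block, or 9.26%. In the older build the gene order around this number has 31 protein-coding genes and includes, in order, Tfeb, Mdfi and Foxp4, the Trem family, Nfya and Lrfn2. Tfeb drives lysosomal genes, Mdfi binds and restrains myogenic transcription factors, Foxp4 is a forkhead factor, and the Trem genes encode receptors of myeloid cells. Which of these genes lie beside the gained stretch was not determined.

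The block on chromosome 5 from megabase 150 gained 17 of 47 regions and lost 1 on Day10 against Day0. With the stricter cutoffs it gained 10, or 21.3%. It listed 76 and 70 summits on Day0, 85 and 80 on Day3, and 400 and 420 on Day10. Of the gained regions, 9 lay in one stretch of 94.8 kb that held 5 and 4 listed summits on Day0, 6 and 5 on Day3, and 70 and 86 on Day10. Among the 50000 strongest peaks these were 1 and 2 on Day0, 1 in both Day3 libraries, and 12 and 11 on Day10. The strongest gained region, from 150175001 to 150175501, had folds of 44.6 in both Day10 libraries at ranks 589 and 947. It was not listed on Day0 and stood at folds of 5.0 and 6.12 on Day3. The second, from 150261157 to 150261657, ranked 2735 and 2639 on Day10 and was listed earlier in Day3 replicate 1 alone, at rank 111184. The third, from 150185727 to 150186227, ranked 2419 and 5994 on Day10 and had no earlier listed peak.

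The same stretch held 1 region open on every day, from 150256641 to 150257141. It ranked 7757 and 9234 on Day0, 4716 and 9001 on Day3, and 756 and 948 on Day10, and was named after its values were seen. Its folds differed less, at 44.1 and 44.6 on Day10 and 43.1 and 42.2 on Day0. A rank is relative to the other peaks of its library, and in the strongest steady region of every block but that on chromosome 2 both Day10 folds were lower than both Day0 folds. The region with the best mean rank over all libraries lay outside the stretch, from 150588960 to 150589460, and ranked 1037 and 671 on Day0, 76 and 67 on Day3, and 590 and 1343 on Day10.

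This block held the 1 region gained on Day3 against Day0, from 150156580 to 150157080. It ranked 41515 and 47037 on Day3, with folds of 17.2 and 15.6, against 138399 and 126792 on Day0, with folds of 5.24 and 5.78. At Day10 it stood at 27360 and 26689. The 1 lost region, from 150932474 to 150932974, ranked 41762 and 39848 on Day0, 56991 and 55150 on Day3, and 142596 and 128291 on Day10. Around this number the older build lists 13 protein-coding genes, among them Rxfp2, Fry, Pds5b, Kl and Stard13 in that order. Rxfp2 is a receptor for a relaxin-like hormone, Pds5b a regulator of cohesin, and Kl the co-receptor through which FGF23 acts on mineral balance.

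The block on chromosome 4 from megabase 106 held 6 of the 10 lost regions. It gained 19 and lost those 6 of 67 regions on Day10 against Day0, or 28.4% and 8.96%, so its share of lost regions lay near the 7.99% of the genome. With the stricter cutoffs it gained 9, or 13.4%. The median Day10 rank of its gained regions was 32174 and 33733, close to the 32021 and 31867 over all gained regions. The strongest gained region, from 106643286 to 106643786, had folds of 6.41 and 6.36 on Day0, 14.5 and 11.1 on Day3, and 32.1 and 33.0 on Day10. The region from 106905934 to 106906434 was not listed on Day0 and had folds of 11.7 in both Day3 libraries and 31.7 and 30.2 on Day10. The third, from 106810317 to 106810817, had folds of 6.99 and 5.78 on Day0, 7.78 in both Day3 libraries, and 28.8 and 28.4 on Day10. In these 3 regions, named for their Day10 strength, the Day3 values lay above the Day0 values and below the Day10 values in every library that listed them. Most of the 19 gained regions of the block did not share this course. Of the 19, 11 had no listed peak in either Day3 library. Both Day3 ranks were better than both Day0 ranks in 8 of the 19, and both were worse in 3.

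A region open on every day, from 106637191 to 106637691, ranked 47881 and 45480 on Day0, 21506 and 21822 on Day3, and 1818 and 623 on Day10. It lay 6.09 kb from the strongest gained region and was named after its values were seen. Its folds were 17.5 and 18.5 on Day0, and 41.7 and 45.5 on Day10. The strongest lost regions started at 106775444 and 106470712. The first ranked 181390 and 169325 on Day10, against 27671 and 27592 on Day0, and the second 132305 and 234686, against 40155 and 34838. At Day3 they ranked 52267 and 50703, and 50233 and 52758. The strongest steady region, from 106417932 to 106418432, kept ranks of 2139 and 1919 on Day0, 3025 and 1302 on Day3, and 1817 and 1526 on Day10.

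Of the 19 gained regions, 11 lay in 99.4 kb, from 784 to 884 kb after the start of the block. That stretch listed 15 and 13 summits on Day0, 17 and 18 on Day3, and 85 and 81 on Day10. Among the 50000 strongest peaks these were 3 and 2 on Day0, 3 in both Day3 libraries, and 13 in both Day10 libraries. The next megabase gained 15 of 85 regions, against 5 of 46 in the megabase before. Around this number the older build lists 26 protein-coding genes, with Usp24, Acot11, Ssbp3, Dio1 and Glis1 among them in that order. Ssbp3 belongs to complexes of LIM-domain transcription factors, Dio1 activates thyroid hormone, and Glis1 is a zinc finger factor.

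The block on chromosome 5 from megabase 113 was the largest, with 120 regions, of which 31 were gained and 3 lost on Day10 against Day0. The stricter cutoffs left 20 gained, or 16.7%. It came 3rd of 2318 megabase blocks by number of gained regions, but 60th of the 1744 blocks with at least 10 regions by their share. The other blocks came 2nd to 43rd by share and 20th to 296th by number. Its strongest gained region, from 113658514 to 113659014, was not listed on Day0, had folds of 7.23 and 9.45 on Day3, and 42.2 and 40.4 on Day10. The second, from 113680021 to 113680521, was not listed on Day0, had folds of 6.12 and 4.45 on Day3, and 39.3 and 40.4 on Day10. The third, from 113942143 to 113942643, ranked 137959 and 108660 on Day0 and 7557 and 6481 on Day10. In the window of that region Day3 replicate 2 alone listed a summit, at rank 75652, while a peak of replicate 1 at rank 56939 overlapped it.

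Gains here fell into several stretches. The densest held 14 of the 31 in 67.2 kb, with 13 and 14 listed summits on Day0, 17 and 20 on Day3, and 89 and 82 on Day10. Among the 50000 strongest peaks these were 4 in both Day0 libraries, 6 and 5 on Day3, and 18 in both Day10 libraries. Between the 14 regions lay a region open on every day, from 113624532 to 113625032. Its ranks were 12971 and 14522 on Day0, 13241 and 9513 on Day3, and 383 and 326 on Day10. Its folds differed less, at 37.9 and 37.0 on Day0 and 45.6 and 46.9 on Day10. It was named after its values were seen. The strongest region on all days, from 113873488 to 113873988, ranked 211 and 896 on Day0, 909 and 928 on Day3, and 72 and 419 on Day10. The strongest lost region, from 113246446 to 113246946, had folds of 35.5 and 34.1 on Day0 and 10.6 and 11.7 on Day3, and on Day10 held a summit in replicate 2 alone, with a fold of 3.25. The next lost region, from 113964739 to 113965239, had folds of 4.8 and 3.25 on Day10, against 18.6 and 22.5 on Day0.

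The older build lists 30 protein-coding genes around this number, with Wscd2, Cmklr1, Ficd, Sart3, Iscu, Tmem119, Selplg, Coro1c and Ssh1 next to each other. Cmklr1 is the receptor of the adipokine chemerin, Tmem119 a membrane protein studied in osteoblasts and microglia, Coro1c an actin-binding protein and Ssh1 a phosphatase that activates cofilin. Whether the gained stretch lies at any of them was not determined.

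**Figure D3:**
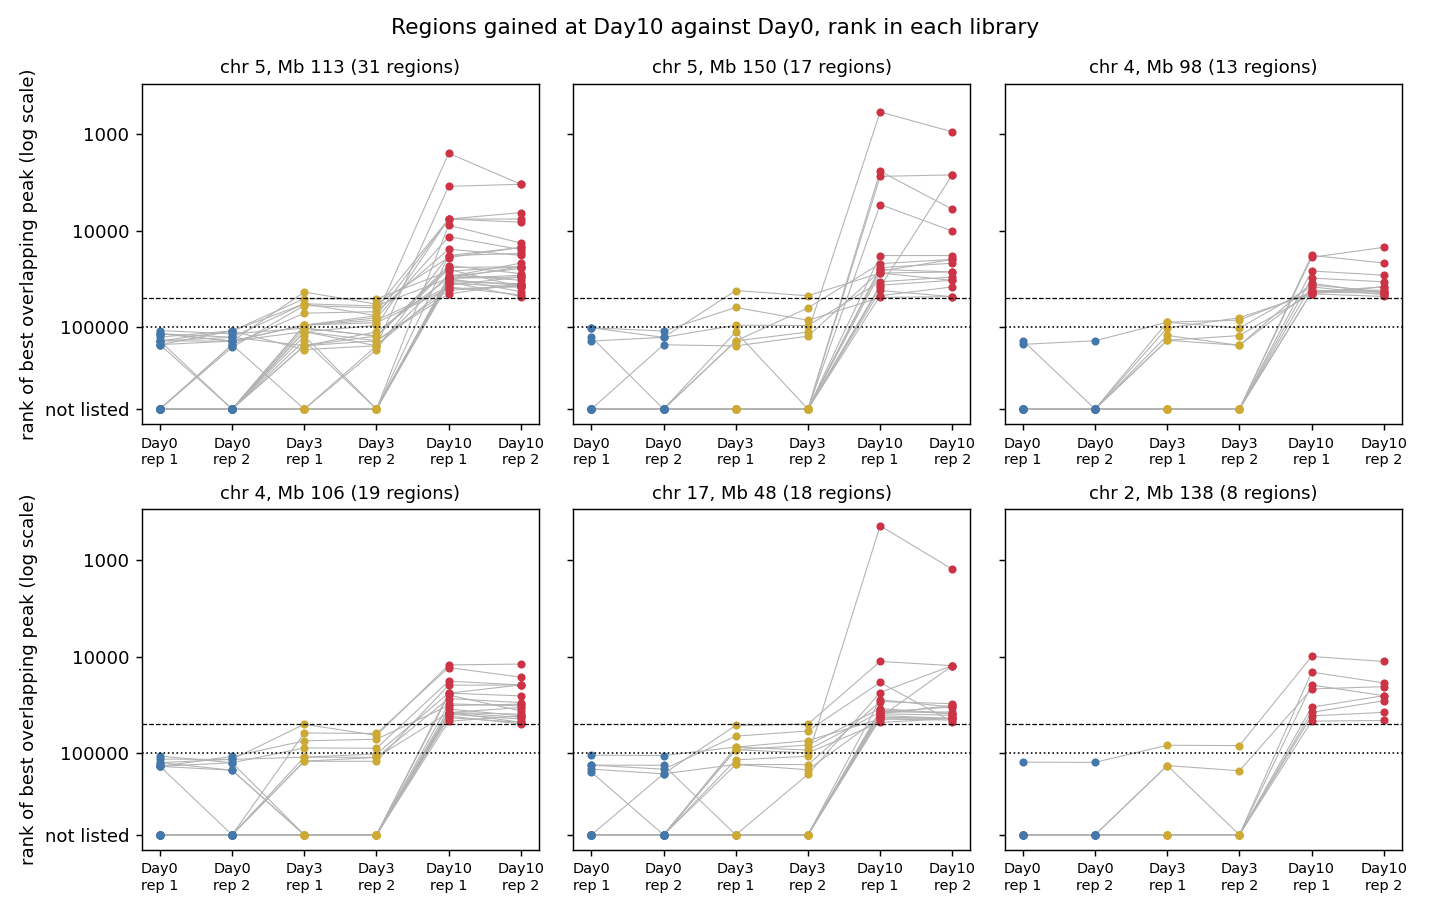
Rank of the best peak overlapping each of the 106 gained regions in each library, on a log scale with strong peaks at the top, by block. Lines join the values of a region, the dashed line marks rank 50000 and the dotted line rank 100000. The points below rank 100000 on Day0 and above rank 50000 on Day10 follow from the rule, while Day3 was free and most points there lie at or below rank 100000 or are not listed.

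Across the 106 gained regions, Day3 was the day that the rule left free. By the best overlapping peak, 77 were beyond rank 100000 in both Day3 libraries, 28 stood in between and 1 had reached the 50000 strongest in both. In percent these are 72.6, 26.4 and 0.943, against 66.3, 30.2 and 3.48 of all 8449 gained regions. In 43 regions both Day3 ranks were better than both Day0 ranks, and in 5 both were worse. That is 40.6% and 4.72%, against 48.4% and 3.25% of all gained regions. The rule held Day0 beyond rank 100000, and a region unlisted in a Day0 library could not count as worse. Of the 106, 26 were listed in both Day0 libraries, so nothing is read from 43 against 5. No peak was listed in any of the 4 earlier libraries in 44 regions, or 41.5%, against 37.6% of all gained regions. The shares beyond rank 100000, in between and without an earlier peak thus lay near those of all 8449 gained regions, which include the 106. The share within the 50000 strongest on Day3 was lower and rests on 1 region.

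The blocks differed among themselves in how often a gained region was unlisted on both earlier days. The count was 5 of 8 on chromosome 2, 10 of 17 on chromosome 5 from megabase 150, 7 of 13 on chromosome 4 from megabase 98, 8 of 19 from megabase 106, 7 of 18 on chromosome 17 and 7 of 31 on chromosome 5 from megabase 113. A wider view takes every listed Day10 peak of the blocks. Of these, 71.4% and 72.0% overlapped no listed peak of the 4 earlier libraries, against 53.5% and 54.8% in the whole lists. Among the 50000 strongest Day10 peaks the shares were 17.2% and 17.6%, against 7.26% and 7.39%. These higher shares are tied to the choice of blocks by Day10 gains, and nothing is read from them.

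The gained regions had folds near those of gained regions in general. Their median fold was 23.0 and 22.8 in the Day10 libraries, against 22.5 and 23.2 over all gained regions. The peaks at them were wider, with medians of 704 and 719 bases, against 562 and 582. Peaks at the regions kept on all days were also wider in the blocks, with 801 and 837 bases, against 738 and 767 over all such regions. Over all listed Day10 peaks the blocks did not have wider ones, with medians of 156 and 159 bases, against 161 and 166 in the genome. Within 10000 in both Day10 libraries stood 8 of the 106, or 7.55%, against 3.91% of all gained regions, and 7 of these 8 lay in the 2 blocks of chromosome 5. The Day10 ranks of a gained region differed by a median of 1.12 times between the replicates and by at most 2.81 times.

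Gained regions in the blocks stood close together, as their choice by density requires. The nearest other gained region was a median of 6.07 kb away, against 25.8 kb over all gained regions. At least 3 others lay within 100 kb of 87 of the 106, or 82.1%, against 39.7% of all gained regions. The distance to the nearest region open on all days was about the same, with a median of 15.9 kb, against 15.8 kb. It ran from 6.62 kb on chromosome 5 from megabase 113 to 90.7 kb on chromosome 2. The megabases on either side held fewer gained regions than the block between them, which the choice by density favours. Before and after, they gained 5 of 49 and 6 of 109 regions around megabase 113, and 5 of 52 and 4 of 40 around 150. Around megabases 98 and 106 these were 4 of 29 and 3 of 27, and 5 of 46 and 15 of 85. On chromosome 17 they were 8 of 79 and 7 of 31, and on chromosome 2, 1 of 22 and 2 of 22. Over all regions 10.7% were gained, and the median megabase block held 2 gained regions.

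Regions within the 50000 strongest of all 6 libraries numbered 87 in the blocks. Both Day10 ranks were better than both Day0 ranks in 43 of them, or 49.4%, and worse in 17, or 19.5%. Over all 25716 such regions these shares were 37.6% and 36.4%. At Day10 against Day3, 30 were better and 32 worse, or 34.5% and 36.8%, against 27.1% and 46.1% of all. The blocks were chosen by Day10 gains in these same libraries, so nothing is read from these Day10 shares. At Day3 against Day0, a comparison that the choice of blocks did not use but that shares the Day0 libraries with it, 47 were better and 17 worse. In percent these are 54.0 and 19.5, against 43.5 and 25.5 of all such regions.

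**Figure D4:**
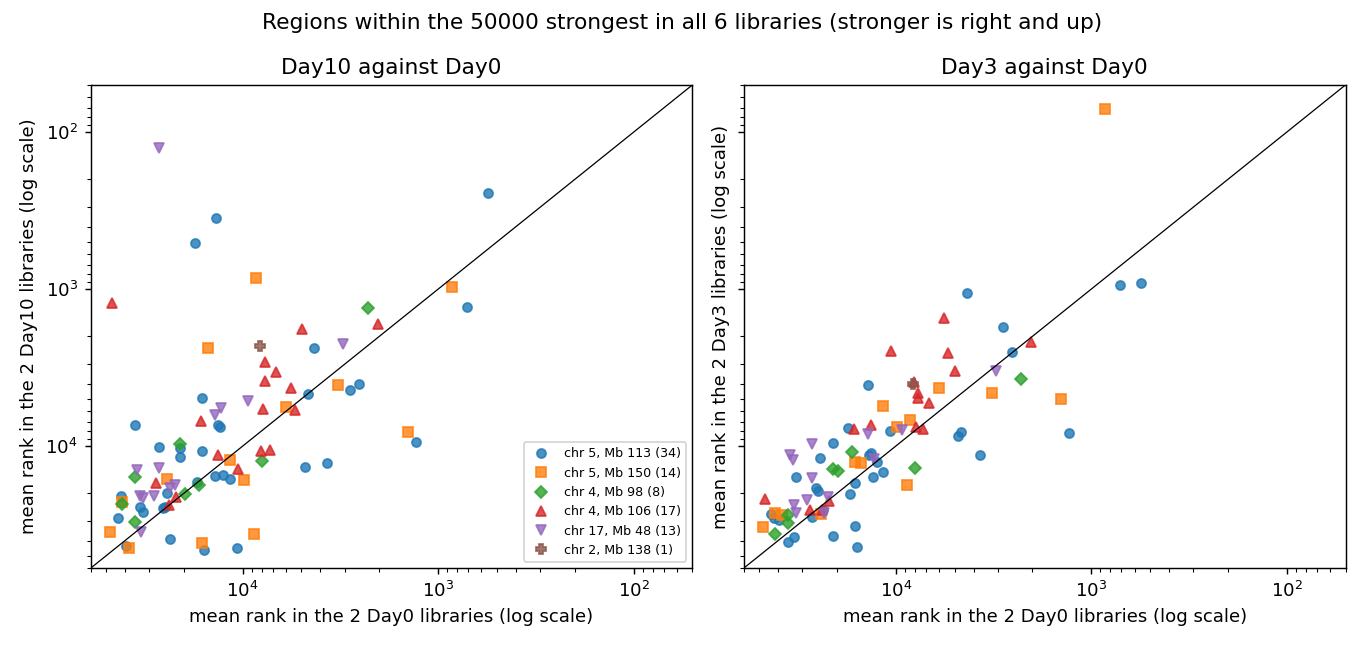
Mean rank of the 87 regions that are within the 50000 strongest in all 6 libraries, on Day10 against Day0 (left) and on Day3 against Day0 (right), on log axes with strong regions to the right and at the top. Points above the line stand stronger on the later day. On the left a few regions stand far above the line, such as that on chromosome 17 with ranks 171 and 80 on Day10 against 27367 and 26333 on Day0. The blocks were chosen by Day10 gains, so nothing is read from the left panel.

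The 10 lost regions lay in 3 of the blocks, 6 on chromosome 4 from megabase 106, 3 on chromosome 5 from megabase 113 and 1 from megabase 150. At Day3, 1 of them was still within the 50000 strongest in both libraries, none was beyond rank 100000 in both, and the rest stood in between. Of all 6285 lost regions, 32.9% were still within the 50000 strongest and 5.58% were beyond rank 100000 in both Day3 libraries. A peak was still listed over 9 of the 10 in both Day10 libraries. Among all lost regions this held for 78.7%.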

How the data were processed

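The authors deposited 1 narrowPeak list for each of 6 ATAC-seq libraries, so peaks were called per library and not on pooled libraries. Per the labels, reads were single-end, and the submitters' processing notes name Trim Galore and mm10. Scaffold names in the lists belong to GRCm39, and positions are read as such. The aligner, peak caller, settings and any shift for the Tn5 cut were not given in the sources used here. The deposited score is 10 times the -log10 q, which was found on the files, and the deposited fold ratio, -log10 p and -log10 q are the authors' own. The fold ratio of each library takes evenly spaced values. Read as height plus 1 over background plus 1, their spacing gives the background (0.717 to 1.15) and whole heights for 100.0% of peaks within 0.01. Background over the smallest peak width (68 to 90 bases) estimates relative depth. The Day10 libraries have smaller minimum widths (68 and 72 bases, against 87 to 90 in the others), and the peak names of the Day3 libraries include the word lysis, while those of the other days do not. Day and handling therefore cannot be told apart.

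Chromosomes 1 to 19, X and Y were used. Ties in -log10 p were ordered by fold, then position, and 4929 to 8225 peaks per library share the fold at rank 100000. Calls were counted without a test and set beside the share called over all regions. The procedure was tested on simulated lists of equal length and depth with evenly spaced peaks. That test does not cover the longer Day10 lists or gained regions that stand close together. Named regions are the 3 strongest gained, the strongest kept on all days, up to 2 lost, and up to 2 changed at Day3 in each block. The members, lists and rules were chosen with earlier results of these data known. Gene names come from RefSeq's GRCm38.p6 table as an order of neighbours. Its protein-coding genes had an end within 500 bases of a strong summit in 7.64% to 7.75% of cases, against 5.36% to 5.56% when shifted by 1 megabase. Motif content, start sites and sequences need a genome of the lists' build and were not analysed here. Replicates differ in culture per the labels, with 2 per day. Python 3.11.15, pandas 2.3.3, NumPy 2.4.6 and Matplotlib 3.10.9 were used.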

Additional observations from a re-analysis of the deposited data

How the results depend on the processing

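Counts below are of regions in the 6 blocks. The 106 gained regions at Day10 against Day0 stayed between 90 and 136 under 6 of the 7 other settings, and the 80 at Day10 against Day3 between 69 and 99 under 5 of them. Rank cutoffs of 30000 and 60000 gave 54 gained and 5 lost at Day10 against Day0, 42 and 3 at Day10 against Day3, and 0 and 2 at Day3 against Day0. Over all regions these cutoffs called 5.99% and 4.8%, 4.48% and 1.77%, and 0.266% and 0.33% in that order. Under those cutoffs 3 of the 6 blocks were among the 5% of blocks with the highest gained share, where all 6 were with the usual cutoffs. With no gap between cutoffs there were 24 lost at Day10 against Day0, 124 gained and 11 lost at Day10 against Day3, and 21 gained and 20 lost at Day3 against Day0. Over all 78698 regions the same setting called 13796, 11787, 11072, 6290 and 6017, and in percent of the 333 regions the counts are 7.21, 37.2, 3.3, 6.31 and 6.01, against 17.5, 15, 14.1, 7.99 and 7.65 of all regions. The summit rule alone gave 20 lost, 9 lost, and 3 gained and 5 lost in the same order of comparisons, where the shares called over all regions were 10.0%, 4.59%, 1.17% and 1.72%. By the authors' fold, 15 or more against under 7.5, there were 6 lost at Day10 against Day0, or 1.8%, against 6.43% of all regions. The cause of these differences was not tested. The ratio of listed summits, Day10 over Day0, was 4.3 over whole lists, 2.56 and 2.47 at a -log10 q of 5 and 10 or more, and 1.81 among the 50000 strongest peaks.

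Leaving out 1 library in turn removes a condition, so no count of calls can fall. At Day10 against Day0 gained counts were 107 to 116 and lost counts 10 to 12, with 5 to 6 blocks in the highest 5%. At Day10 against Day3 they were 81 to 89 and 1 to 2, with 2 lost without Day3 replicate 2 or without Day10 replicate 2. At Day3 against Day0 they were 1 to 2 gained, with 2 without Day0 replicate 2 or without Day3 replicate 2, and 1 lost. Giving tied peaks their mean rank, a setting chosen after seeing the data, gave 105 gained and 9 lost at Day10 against Day0. No paired analysis was possible because the results are counts of calls and come from no test.

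The motif comparison was not run. Read counts over shared regions were not used here, so a region that is not listed at Day0 or Day3 is not shown to be closed there. The estimated Day10 depth is 1.96 times that of Day0 replicate 1, and its part in the counts was not tested.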
